A study of Mus musculus with 9 samples.

Results

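RIKEN-named transcripts are mouse genes still carried under the name of a cDNA clone of the RIKEN collection, and they were taken here as the rows of the deposited liver table whose symbol ends in Rik, with a mean of 50 or more normalised reads over the 9 livers and with 1 gene left out. The selection gave 241 genes of the 17442 in the table. Of the 895 rows with such a symbol, 229 had a mean from 10 to 50 and 425 a mean under 10. The mean level therefore chose the genes, and levels are given below as a description. The 9 livers came from male C57BL/6 mice, 4 wild type (Msr1+/+) and 5 labelled Msr1-/-, 1 library per animal. All 9 mice, controls included, had a high fat-cholesterol diet for 16 weeks, a diet under which fatty liver disease develops, and no liver from another diet is compared. Msr1 encodes a scavenger receptor of macrophages, so the labels' deletion concerns a gene of a minority cell type while most RNA of the organ comes from hepatocytes.

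RIKEN clone names were given when full-length mouse cDNAs were sequenced faster than their products could be studied. A clone name is kept until a gene gets a functional name, so the group mixes proteins now well known, proteins with little known function and long non-coding RNAs. Long non-coding RNAs are transcripts without a recognised protein; many start beside, or lie opposite to, a coding gene. The coding genes of the group include some for proteins of mitochondria and endosomes, which hepatocytes share with most cells. Others are for proteins of cilia, which bile duct cells carry and hepatocytes lack.

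By the RefSeq and GENCODE annotation, 162 of the 241 genes were protein-coding, 77 non-coding and 2 pseudogenes. Non-coding genes made up 32.0% of the group against 5.32% of the 12937 genes tested. RefSeq now gives another symbol for 58 of the genes, such as Tedc2 for 1600002H07Rik, and still uses the Rik symbol for 175. All 241 had a read in every liver. Together they held 0.551% of the normalised counts. Their mean levels lay between 50 and 100 in 78 genes, between 100 and 1000 in 147 and at 1000 or more in 16. Just inside the limit stood 4833418N02Rik at 50.33, A530017D24Rik at 50.36 and 1810044D09Rik at 50.49, and just outside it 1110019D14Rik at 49.88, 4933404O12Rik at 48.96 and A330023F24Rik at 48.16. In 15 genes the mean of 1 genotype was under 50, and these entered through the other genotype.

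The reads recovered per liver came to between 15006773 and 18238932. Msr1 (chr8:39581685-39642673, minus strand, GRCm38) had reads in every library labelled Msr1-/-, at 175.37 ± 23.01 (SD, n = 5) against 278.0 ± 124.7 (SD, n = 4) in wild type. Its log2 difference was -0.58. The exact permutation p, two-sided, was 0.0476 from the doubled smaller tail and 0.0317 when splits are ranked by the absolute difference. By limma over all genes, the test used for every other gene here, Msr1 was not called (adjusted p 0.264). Without wild type 3 the difference was -0.31. Wild type 3 stood apart from the other livers. On the first principal component of the RIKEN-named genes, which held 53.0% of their variance, wild type 3 scored -11.9 and the other 8 livers between -1.48 and 4.08. The summed level of 5 macrophage and monocyte markers was 7501 in wild type 3, between 2115 and 2730 in the other wild-type livers and between 1211 and 1685 in Msr1-/-, with 0 of the 5 called. The 5 Kupffer cell markers summed to 9812 in wild type 3, between 4638 and 6363 in the other wild-type livers and between 2686 and 3755 in Msr1-/-, with 0 of the 5 called. Its height in wild type 3 came from Cd5l (5381 against 1562 to 2351 in the other wild-type livers) and Marco (1591 against 170 to 734), while Timd4 was lowest there among wild type (119 against 148 to 207) and Clec4f, at 1845, was below wild type 1 and 2. The sums also separated the genotypes for 4 lipid-associated macrophage markers (755 to 2877 in wild type, 411 to 651 in Msr1-/-). Without wild type 3 the wild-type range of that sum was 755 to 857. Sums of 3 neutrophil markers separated too (129 to 275, and 55.1 to 112). The same held for 3 B and plasma cell markers (203 to 359, and 80.7 to 174) and 3 cholangiocyte markers (63.3 to 150, and 27.6 to 50.3). Within these lists Cd9, Gpnmb, S100a8, S100a9, Cd79a, Epcam and Krt19 overlapped between genotypes. Of the macrophage and Kupffer cell markers, Adgre1, Csf1r, Ccr2, Vsig4, Timd4 and Marco overlapped as well. The sums themselves overlapped for T cell, stellate cell, endothelial and erythroid markers. For stellate cell markers they were 978 to 1986 in wild type and 738 to 995 in Msr1-/-. Sox9, of the cholangiocyte list, was the only called gene of the marker lists (adjusted p 0.0103 by limma). It was at 57.0 to 88.6 in wild type and 23.3 to 35.1 in Msr1-/-, and the cholangiocyte separation rested on it. Epcam was at 3.17 to 39.2 and 1.96 to 13.7 (adjusted p 0.930 by limma), and Krt19 was too low to be tested. The part of these cell types in the differences below was not tested. The 5 hepatocyte markers were present throughout, summing to 1318168 in wild type 3 and to between 1557178 and 2232824 elsewhere. That sum was mostly Alb (978421 in wild type 3). Alb, Ttr and Serpina1a were lowest in wild type 3, while Apoa1 was lower in Msr1-/- 1 (118473 against 146069). Cyp3a11 was highest in wild type 3, at 66891 against 2419 to 13614 in the other wild-type livers. It was at 33412 to 58826 in Msr1-/-, a difference of 2.02 (adjusted p 0.215 by limma). Because wild type 3 stood apart, the main counts of calls and many of the named differences are given with and without it. In bulk liver, fewer cells of a type and less RNA per cell cannot be told apart.

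Genotypes were compared by limma over all tested genes with Benjamini-Hochberg adjustment; differences are Msr1-/- minus wild type on the log2(value + 1) scale, with a standard error (SE), and a gene is called where the adjusted p is under 0.05. Of the 241 RIKEN-named genes 3 were called, 1810055G02Rik higher and 3110082I17Rik and 4930556M19Rik lower in Msr1-/-. The share of 1.24% lay near the 1.37% called among all tested genes, of which 0.665% were higher and 0.703% lower. On the recovered reads edgeR called 3 members (1.43% of all genes) and DESeq2 14 (6.00% of all genes). With array weights limma called 9 (4.10% of all genes). Each of the 3 calls was lost on leaving out some single livers: 4930556M19Rik was called in 2, 1810055G02Rik in 3 and 3110082I17Rik in 1 of the 9 fits that each leave out 1 liver. All 3 were called without wild type 3.

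The promoters of the 2 called coding genes are printed because these genes moved in opposite directions. They are the 250 bases before the RefSeq start, the first listed of 2 for 1810055G02Rik, in GRCm38.p6, 5′ to 3′ on the gene's strand. Capitals mark CCAAT or its reverse complement ATTGG, the GC box GGGCGG and the E-box CACGTG. The windows are chr19:3708043-3708292 (plus strand) and chr5:139460535-139460784 (minus strand).
1810055G02Rik: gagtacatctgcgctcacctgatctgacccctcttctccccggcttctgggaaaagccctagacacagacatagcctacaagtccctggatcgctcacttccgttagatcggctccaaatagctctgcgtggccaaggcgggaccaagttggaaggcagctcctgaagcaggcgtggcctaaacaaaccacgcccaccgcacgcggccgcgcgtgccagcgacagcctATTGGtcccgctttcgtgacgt
3110082I17Rik: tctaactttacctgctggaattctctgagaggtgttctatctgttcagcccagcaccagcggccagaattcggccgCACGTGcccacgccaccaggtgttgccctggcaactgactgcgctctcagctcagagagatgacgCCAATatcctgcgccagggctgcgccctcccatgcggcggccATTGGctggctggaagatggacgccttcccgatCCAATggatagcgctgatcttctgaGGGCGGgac
The window of 1810055G02Rik held 1 match, an ATTGG 22 bases before the start. That of 3110082I17Rik held CACGTG at 174 bases, CCAAT at 109 and 34, ATTGG at 67 and GGGCGG at 9 bases before the start. Over both strands, CCAAT was found in 34.5% of the 194 windows of RIKEN-named genes with a promoter in the table in 36.6% of the windows of tested genes and in 34.5% of all 27025 RefSeq windows of that length. The GC box was in 55.2% of the RIKEN-named windows, 57.7% of the windows of tested genes and 32.9% of all windows. CACGTG was in 11.3%, 8.46% and 6.05% of these windows, in the same order. The TATA motif TATAAA was in 7.22% of RIKEN-named windows, 6.81% of those of tested genes and 13.0% of all. The median ratio of observed to expected CpG was 0.754 in RIKEN-named windows, 0.725 in tested genes and 0.378 in all. A match describes letters only.

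1810055G02Rik (chr19:3708293-3717881, plus strand, protein-coding, product little characterised) rose in Msr1-/-. Its normalised read counts were 451.3, 654.1, 509.1 and 425.0 in wild type 1 to 4, and 790.6, 1038.3, 1212.7, 989.3 and 695.3 in Msr1-/- 1 to 5. Every Msr1-/- liver lay above every wild-type liver, the narrowest gap being between wild type 2 and Msr1-/- 5. The difference was 0.88 ± 0.18 (SE), a 1.84-fold higher level, with a limma adjusted p of 0.0433. Without wild type 3 it was 0.89 with an adjusted p of 0.0246.

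3110082I17Rik (chr5:139359739-139460527, minus strand, protein-coding) spans the locus of Gpr146, a receptor gene, without shared exonic bases. It had the lowest difference of the group. Its counts were 116.6, 169.9, 54.9 and 104.4 in wild type and 40.3, 28.4, 33.8, 26.9 and 53.1 in Msr1-/-. The genotypes did not overlap, but wild type 3 stood within 2 reads of Msr1-/- 5. The difference was -1.52 ± 0.31 (SE, adjusted p 0.0433 by limma), and -1.82 without wild type 3 (adjusted p 0.00370). With the Msr1-/- mean at 36.5, it entered the group through wild type.

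4930556M19Rik (chr15:10714836-10790123, plus strand) is a long non-coding RNA that starts 212 bases from the start of Rai14, which runs the other way. It stood at 73.8, 62.2, 89.4 and 85.4 in wild type and at 45.6, 36.2, 42.9, 40.9 and 44.1 in Msr1-/-. All Msr1-/- livers were below all wild-type livers, and they varied little. The difference was -0.86 ± 0.17 (SE, adjusted p 0.0355 by limma). Its Msr1-/- mean of 41.9 is also under 50.

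**Figure D1:**
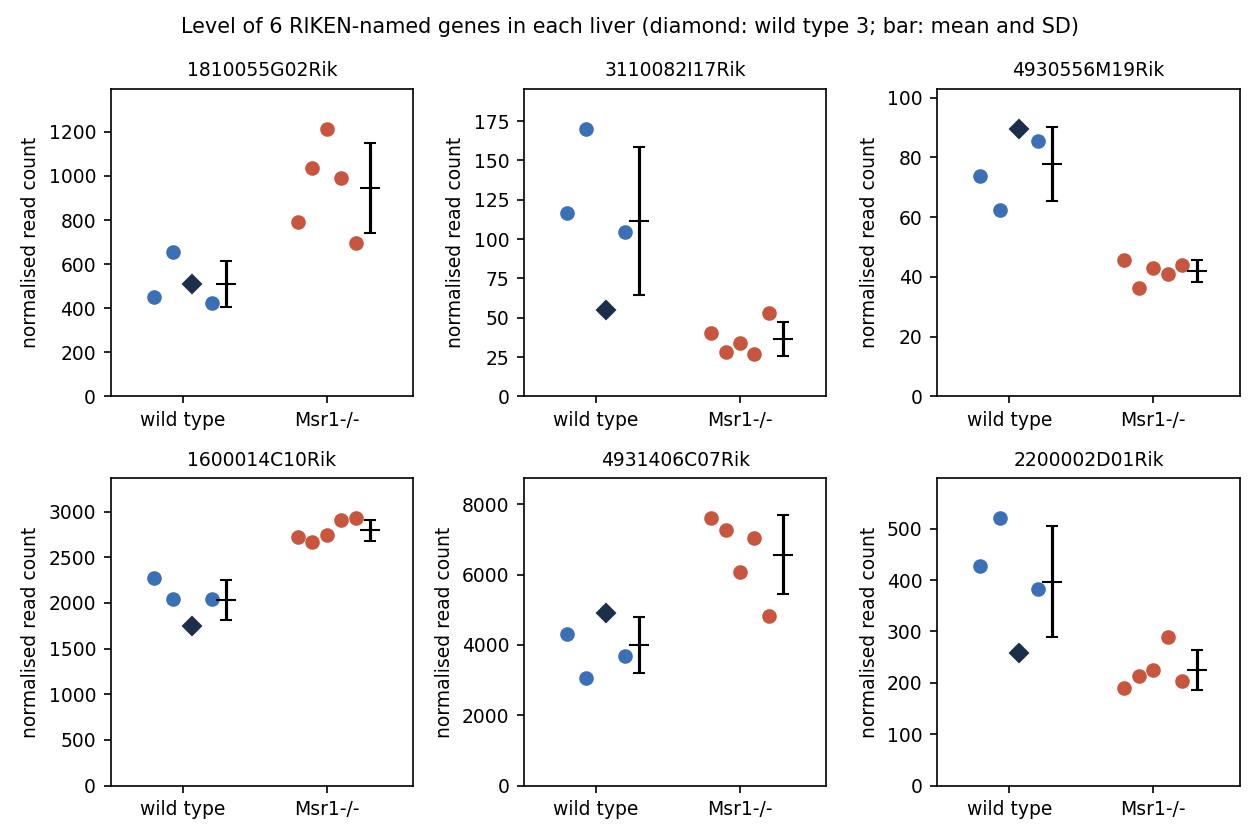
Normalised read count (linear axis from 0) of 6 genes in the 4 wild-type and 5 Msr1-/- livers, each point 1 liver, with mean and SD. The 3 called genes fill the upper row, where 1810055G02Rik lies between 425.0 and 654.1 in wild type and between 695.3 and 1212.7 in Msr1-/-; in the lower row wild type 3 of 2200002D01Rik falls among the Msr1-/- livers.

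Several coding genes lay just past the threshold. 1600014C10Rik (chr7:38183217-38197568) encodes a mitochondrial membrane protein whose human counterpart is mutated in a neurodegeneration with brain iron accumulation. Its counts were 2276.6, 2046.7, 1743.1 and 2043.5 in wild type and 2721.5, 2666.7, 2743.2, 2905.9 and 2925.4 in Msr1-/-, with no overlap. The difference of 0.47 ± 0.10 (SE) had a limma adjusted p of 0.0540, and without wild type 3 it was 0.40 with 0.0373.

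4931406C07Rik (chr9:15283337-15306448) encodes an ester hydrolase and shares exonic bases with Taf1d. Its counts were 4319.1, 3058.5, 4914.1 and 3694.2 in wild type and 7599.6, 7258.2, 6081.8, 7054.7 and 4826.9 in Msr1-/-. Wild type 3 was the highest wild-type liver and stood just above Msr1-/- 5, the one overlap. The difference was 0.72 (adjusted p 0.0708 by limma) over all livers and 0.83 (adjusted p 0.0175) without wild type 3.

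2200002D01Rik (chr7:29246561-29248466) shares exonic bases with Yif1b, so reads could be split between them. It stood at 426.7, 520.1, 258.9 and 383.3 in wild type and at 190.8, 213.3, 224.6, 290.0 and 203.4 in Msr1-/-. Only wild type 3 fell within the Msr1-/- range. The difference of -0.79 (adjusted p 0.0769 by limma) became -0.98 (adjusted p 0.00719) without that liver.

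9130409I23Rik (chr1:181051237-181060667, protein-coding) showed the same dependence with a wider spread. It was at 227.8, 140.3, 586.8 and 424.1 in wild type and at 712.2, 796.6, 773.5, 889.9 and 482.9 in Msr1-/-. Wild type 3 lay above Msr1-/- 5. The difference was 1.26 (adjusted p 0.115 by limma), and 1.58 (adjusted p 0.0137) without wild type 3.

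Among non-coding genes, 4833411C07Rik (chr8:10899922-10903893) was at 172.2, 149.8, 127.9 and 155.6 in wild type and at 91.1, 86.1, 95.9, 64.3 and 124.2 in Msr1-/-. It shares exonic bases with Gm45043 on the other strand. Its genotypes did not overlap, and its difference of -0.73 had an adjusted p of 0.0822 by limma, and 0.0345 without wild type 3. 1500017E21Rik, now Hectd2os (chr19:36614052-36705641), lies antisense to Hectd2 and shares exonic bases with it. It was at 77.0, 24.3, 73.0 and 76.8 in wild type and at 267.1, 108.6, 136.1, 119.3 and 135.3 in Msr1-/-. The difference of 1.33 ± 0.37 (SE) had an adjusted p of 0.102 by limma, and without wild type 3 it was 1.45 with 0.0518. Without strand in the counting, reads of such a gene and of its antisense partner cannot be told apart.

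Without wild type 3, limma called 11 RIKEN-named genes, 7 higher and 4 lower, or 4.56% against 4.91% of all tested genes (2.59% higher, 2.32% lower). With that liver left out, edgeR called 10 members against 5.12% of all genes and DESeq2 17 against 8.26%. Beside the 3 and the 5 genes above with an adjusted p under 0.05 in that fit, these were 4930480G23Rik, 4732465J04Rik and E330011O21Rik, all long non-coding and all higher, named after their values were seen. 4930480G23Rik was at 77.0, 59.1, 45.5 and 69.3 in wild type and at 107.0, 93.9, 112.3, 108.8 and 98.2 in Msr1-/-. It did not overlap, and its limma adjusted p was 0.0605 over all livers and 0.0395 without wild type 3. E330011O21Rik was at 71.6, 59.1, 256.5 and 93.0 in wild type and at 178.0, 163.4, 155.2, 134.5 and 89.2 in Msr1-/-, so that wild type 3 exceeded every Msr1-/- liver.

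**Figure D2:**
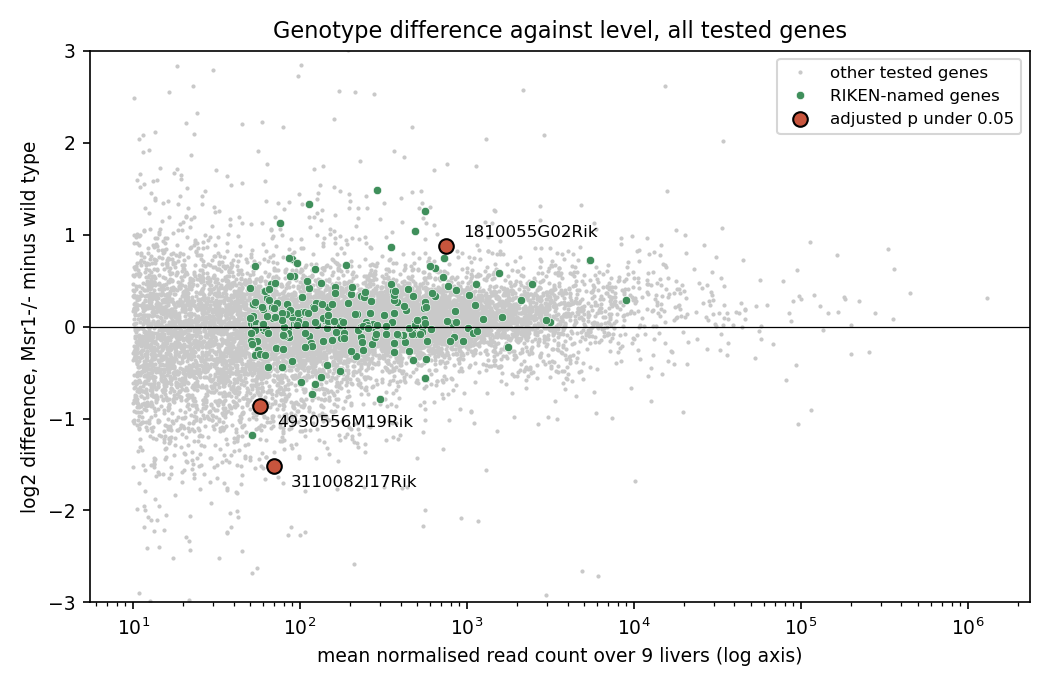
Log2 difference, Msr1-/- minus wild type, against mean normalised read count over 9 livers (log axis) for the 241 RIKEN-named genes (green), the called 3 (red) and the other tested genes (grey); 17 genes beyond 3 on the vertical axis are not shown. The RIKEN-named genes lie within the cloud of all genes, and 211 of them are within 0.5 of 0.

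Most RIKEN-named genes differed little between genotypes. The difference was within 0.5 log2 in 211 genes (87.6%) and past 1 in 7 (2.90%). Over all 12937 tested genes, which include lower levels, these shares were 84.1% and 4.15%, and over the 10099 tested genes at or above the mean of 50 that the group itself had to pass, 89.6% and 2.29%. It ranged from -1.52 to 1.48, with quartiles of -0.08 and 0.26. The median was 0.055 over the group, 0.017 over all tested genes and 0.031 over those with a mean of 50 or more. Differences above 0 were found in 153 genes and below 0 in 88, that is 63.5% above 0 against 52.7% of all tested genes and 55.9% of those with a mean of 50 or more. An unadjusted limma p under 0.05 was found in 33 genes (13.7%, against 15.3% of all and 14.7% of those with a mean of 50 or more). The genotypes did not overlap in 19 genes, 12 higher and 7 lower, or 7.88% of the group against 7.29% of all tested genes (3.30% higher, 3.99% lower) and 7.18% of those with a mean of 50 or more.

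The share above 0 changed with wild type 3, mainly among the non-coding genes. Over all 9 livers 54 of 77 non-coding genes had a difference above 0, with a median of 0.14 (0.16 over all tested non-coding genes), and without wild type 3 it was 34 of 77, with a median of -0.06. The coding genes had 97 of 162 above 0 with all livers (median 0.035) and 86 of 162 without wild type 3 (median 0.028). Over the whole group the median fell to 0.012 without that liver.

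Wild type 3 was the lowest of the 9 livers in 96 RIKEN-named genes, or 39.8% against 25.5% of all tested genes and 27.1% of those with a mean of 50 or more. It was the highest in 39 (16.2%, against 26.5% and 24.2%). It stood at or below 0.5 times the median of the other 8 livers in 28 of 77 non-coding genes (36.4%) and in 10 of 162 coding genes (6.17%). Both shares were close to those of the same gene type over the table, 40.7% of 688 tested non-coding genes and 6.07% of 11912 coding genes. The share in which wild type 3 was the lowest liver was higher within both types. It was 62.3% against 50.6% in non-coding genes and 29.6% against 23.8% in coding genes. The median ratio of wild type 3 to the other livers was 0.596 in the non-coding and 0.954 in the coding RIKEN-named genes. Over all tested genes of these types it was 0.585 and 1.02. The tested genes of each type had a mean of 10 or more and the RIKEN-named genes one of 50 or more. The comparisons by type were not matched for level. In wild type 3 the macrophage markers were also highest, as given above; their part in these low levels was not tested.

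**Figure D3:**
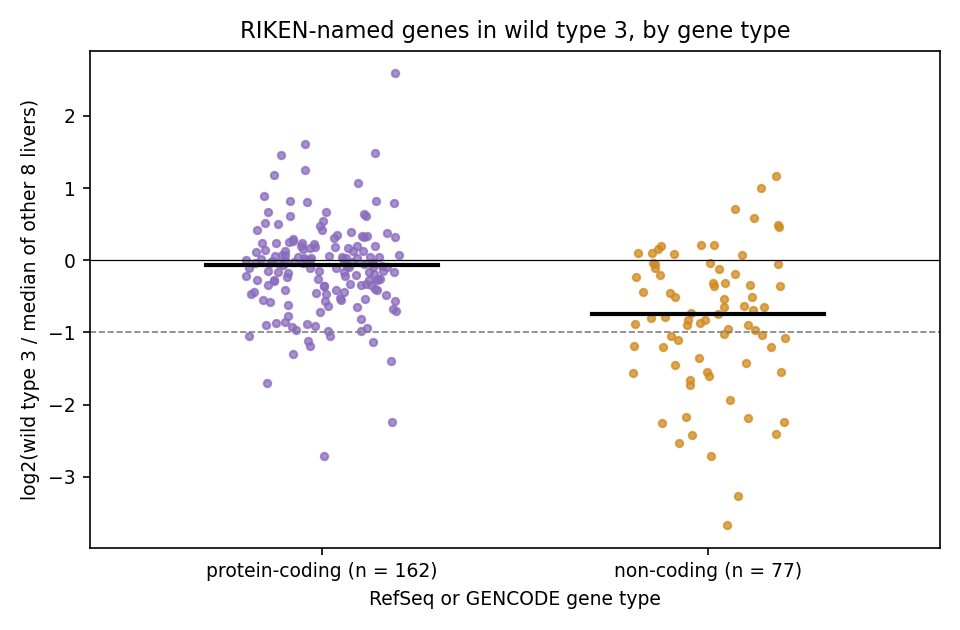
Log2 ratio of wild type 3 to the median of the other 8 livers for each coding (n = 162) and non-coding (n = 77) RIKEN-named gene; black bars are medians and the dashed line marks a ratio of 0.5. The non-coding genes lie lower, 28 of 77 at or below the dashed line against 10 of 162 coding genes.

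The genes farthest down in wild type 3 were mostly non-coding. B430119L08Rik (chr12:103895897-103898784), antisense to the protease inhibitor gene Serpina1c with shared exonic bases, stood at 23.5 in wild type 3 and between 83.4 and 593.1 in the other livers. Its difference of 1.48, the highest of the group, had an SE of 0.69 and an adjusted p of 0.344 by limma, and fell to 0.71 without wild type 3. C730036E19Rik, a long non-coding RNA (chr1:151138034-151142345), was at 52.6 in wild type 3 against 286.5 to 803.9 elsewhere, and its difference went from 1.04 to 0.27 without that liver. A930033H14Rik, annotated as coding but sharing exonic bases with Rhobtb1, was at 12.6 against 27.5 to 135.2, and its difference went from 1.13 to 0.60. 1700018L02Rik, antisense to the adenylate kinase gene Ak3, varied widely in wild type, at 63.1, 236.3, 12.6 and 110.0. Of the coding genes, Tedc2 (1600002H07Rik), part of a tubulin complex of centrioles, was at 359.3 in wild type 3 and between 1319 and 1998 elsewhere.

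Other genes went the opposite way in that liver. 2010003K11Rik (chr19:4496788-4498583, coding) was at 3203.9 in wild type 3, at 169.0, 119.2 and 475.3 in the other wild-type livers and between 303.6 and 771.6 in Msr1-/-. Rab5if (1110008F13Rik), whose product binds the early endosome protein Rab5, was at 230.6 in wild type 3 and between 48.5 and 79.1 in the other wild-type livers. 2510009E07Rik (chr16:21649045-21694665) was at 292.6 in wild type 3 and between 96.0 and 141.4 in the other wild-type livers, and its difference went from -0.63 to -0.28 without it. Trmt9b (6430573F11Rik), a relative of tRNA methyltransferases, was at 54.5, 43.3, 119.2 and 83.5 in wild type and at 43.5, 30.3, 46.6, 22.2 and 18.0 in Msr1-/-. Its difference was -1.18 (adjusted p 0.134 by limma) and -0.93 without wild type 3. With the Msr1-/- mean at 32.1, Trmt9b entered the group through wild type.

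**Figure D4:**
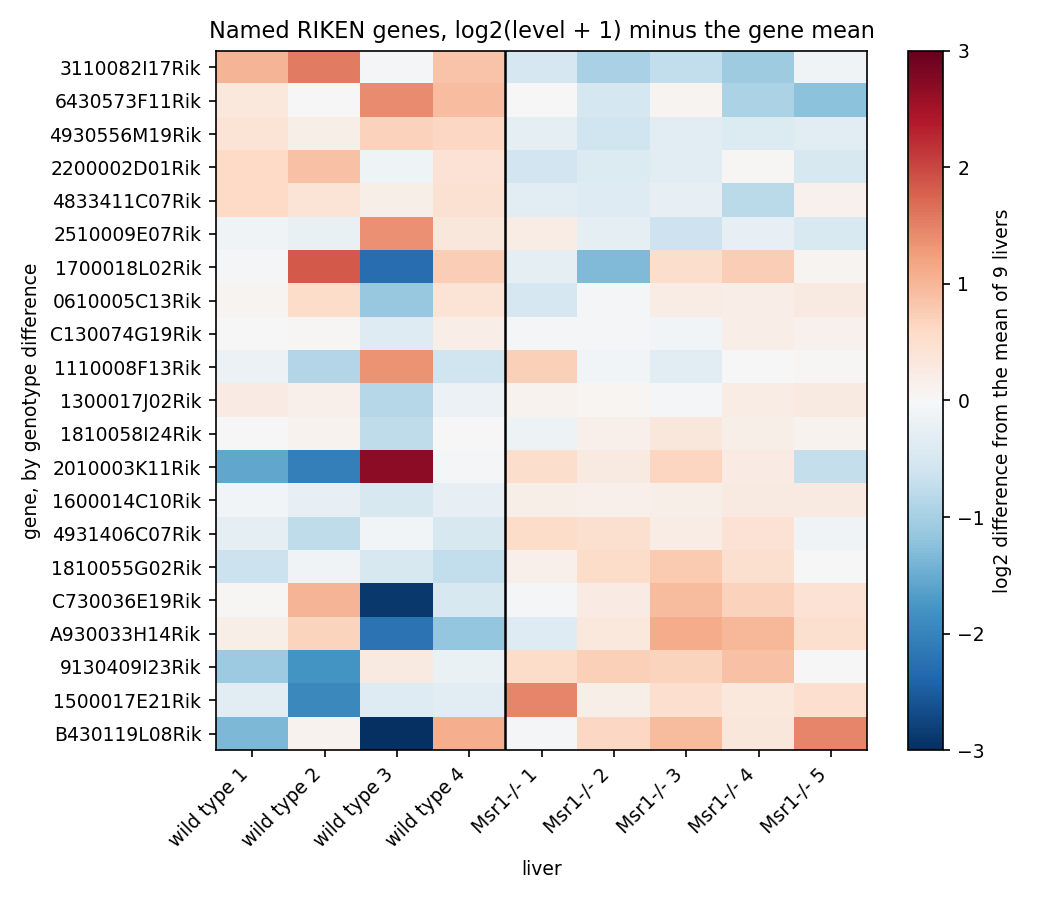
Log2(level + 1) of 21 named RIKEN genes in each liver, minus the gene's mean over the 9 livers, ordered by genotype difference; the colour scale ends at 3 on either side. The column of wild type 3 holds the deepest colours, low in B430119L08Rik (23.5) and high in 2010003K11Rik (3203.9).

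The spread between animals followed the same liver. The median coefficient of variation of RIKEN-named genes was 21.9% in wild type, 14.9% in wild type without wild type 3 and 14.7% in Msr1-/-. Over all genes it was 23.6%, 16.8% and 14.8%, and over tested genes with a mean of 50 or more 20.5%, 15.0% and 12.6%. The steadiest genes were 2210408F21Rik, a long non-coding RNA with 136.7 to 156.3 reads in the 9 livers, 1300002E11Rik, also long non-coding, with 157.2 to 199.3, 1810037I17Rik with 346.1 to 431.5, 1110004F10Rik with 446.3 to 557.8, and Cfap410 (1810043G02Rik), a ciliary protein gene, with 80.8 to 103.7. These genes were chosen for the smallest coefficient of variation over all 9 livers, which includes the variation between genotypes. Their differences between genotypes, from -0.09 to 0.03, are therefore small by that choice.

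The most abundant member by read count was 1300017J02Rik, which encodes an inhibitor of carbonic anhydrase of the transferrin family and starts 133 bases from Topbp1. It was at 4888.2 in wild type 3 and between 7748.8 and 10584.6 in the other 8 livers. Its difference was 0.28, with an adjusted p of 0.578 by limma, and 0.06 without wild type 3. Per kilobase of exon it was also first, at 1994.2 ± 396.7 (SD, n = 9) normalised reads, followed by Atp5mpl (2010107E04Rik), a small subunit of ATP synthase, at 1442.3 ± 160.0 per kilobase. C130074G19Rik came next per kilobase at 978.4 ± 118.1 and ranged from 2239.7 to 3413.4 reads over the livers. 0610005C13Rik, a non-coding gene antisense to Bcat2, a branched-chain aminotransferase, was at 1347.0 in wild type 3 and between 2097.3 and 4354.0 elsewhere. Its difference was 0.05 with all livers and -0.32 without wild type 3, neither called by limma.

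Genes with a known function were grouped by role from gene knowledge after their values had been seen, and the groups carry no test. Of 12 mitochondrial genes 6 had a difference above 0 and 6 below, with a median of 0.003, and none was called over all 9 livers against 1.37% of all tested genes; without wild type 3, 1 of them, 1600014C10Rik, was, against 4.91% of all tested genes in that fit. Dglucy (9030617O03Rik), D-glutamate cyclase, was at 872.6, 882.0, 934.3 and 881.3 in wild type and at 1217.7, 1083.3, 1104.0, 1266.4 and 1017.9 in Msr1-/-, without overlap. Its difference of 0.35 ± 0.10 (SE) had a limma adjusted p of 0.114, and without wild type 3 it was 0.37 with 0.0666. 1810058I24Rik, the gene of a mitochondrial micropeptide that GENCODE lists as non-coding, was at 1233.2 in wild type 3 and between 1877.9 and 2638.2 in the other livers. The lowest difference of the 12, -0.27, was that of Mtln (1500011K16Rik), the mitochondrial micropeptide mitoregulin, whose level was 218.36 ± 19.02 (SD, n = 4) in wild type and 186.6 ± 54.8 (SD, n = 5) in Msr1-/-.

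In the next 3 groups, of 5 or 6 genes each, 0 calls are what the 1.37% called over all tested genes would give, and 52.7% of all tested genes were above 0. Of 5 genes of endosomes and lysosomes, 2 had a difference above 0 and 0 were called, among them Washc4 (A230046K03Rik) at 0.01 and Washc5 (E430025E21Rik) at -0.08, both subunits of the WASH complex that sorts endosomal cargo. Of 5 genes of cilia and centrioles, 4 were above 0 and 0 called, with Tedc2 at 0.58 over all livers and 0.03 without wild type 3. Of 6 genes of RNA handling, 2 were above 0 and 0 called. Virma (1110037F02Rik), a subunit of the RNA adenosine methylation complex, was at -0.11. Chaserr (1810026B05Rik), the long non-coding RNA beside Chd2, was at -0.07 and Oip5os1 (1700020I14Rik), a conserved long non-coding RNA, at -0.12.

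**Figure D5:**
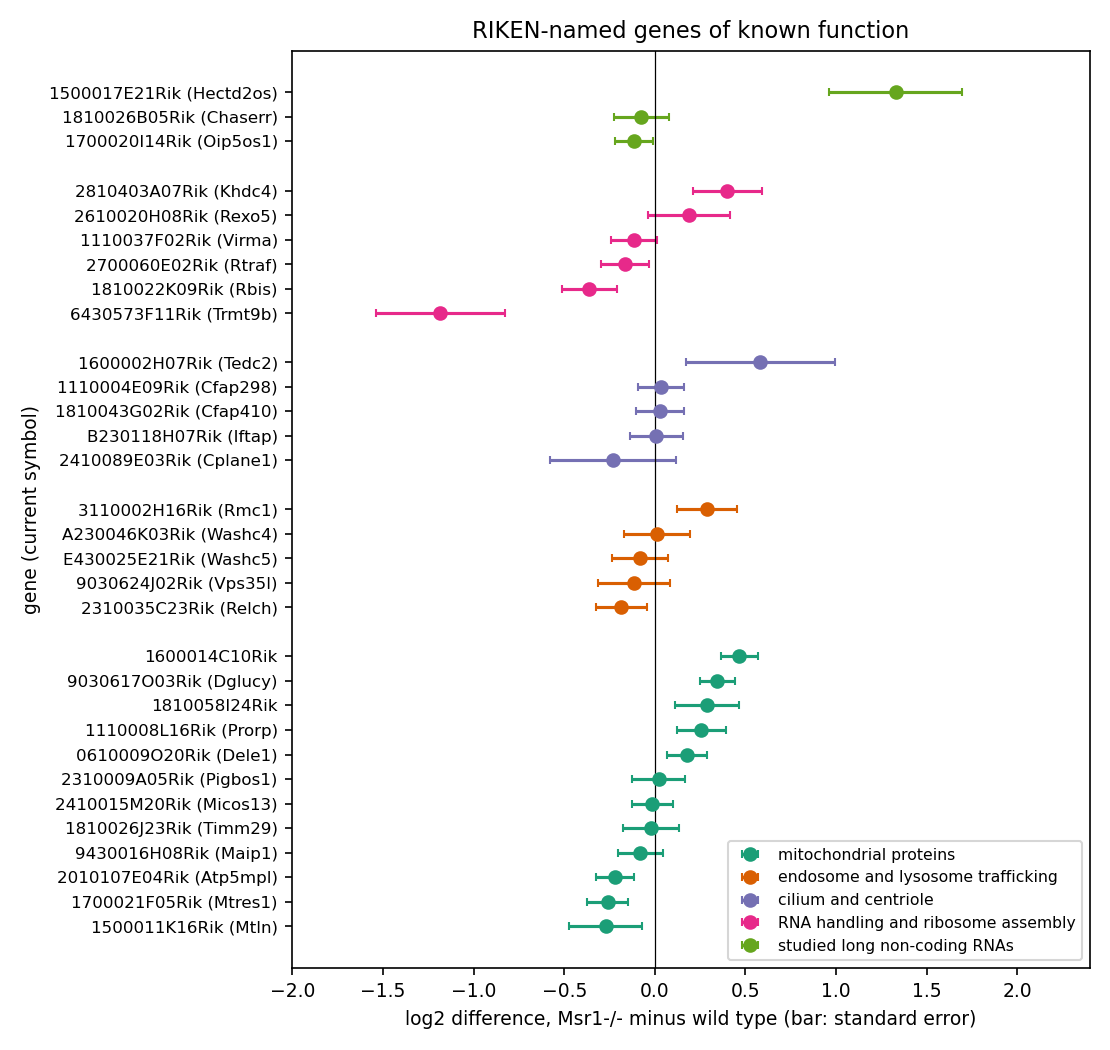
Log2 difference, Msr1-/- minus wild type, with its standard error for 31 RIKEN-named genes of known function, coloured by role. Most lie within 0.5 of 0, Hectd2os (1.33) and Trmt9b (-1.18) being the ends.

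By position, 39 RIKEN-named genes started within 1000 bases of a tested gene that runs the other way, and 72 overlapped another tested gene, 62 of them in exonic bases. Over the 39 pairs that start side by side, Spearman's rho between the 2 genes' differences was 0.063, with the same sign in 25. Over the 72 overlapping pairs it was 0.023, with the same sign in 36. Both are descriptions over genes measured in the same 9 livers. Of all tested genes 1.37% were called. The nearest gene of a RIKEN-named gene was called in 0 cases, and a gene next on 1 side in 5. The closest of the 5 was Washc5, 805 bases from Sqle, the squalene epoxidase gene of cholesterol synthesis. Sqle had a difference of -1.44 (adjusted p 0.0281 by limma) and Washc5 one of -0.08. Of 15 RIKEN-named genes on the chromosome of Msr1, 0 were called, against 1.37% of all tested genes, 7 were below 0 and 8 above. The nearest to Msr1 was Trmt9b, at 3.07 Mb.

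The leading 4 characters of the clone name were compared as a label with no test: of 73 such prefixes 8 had 8 or more members, and their median differences lay between -0.04 and 0.11.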

How the data were processed

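Liver RNA of 9 mice was sequenced from TruSeq libraries, per the labels' protocols; whether counting used strand is not given in the sources used here. The submitters' processing notes list STAR, HTSeq, DESeq2 and mm10 without versions. A signal table was deposited by the authors, holding a value per gene and liver, read counts divided by a size factor. All values were whole multiples of 1 step within 0.01 reads, so whole reads were recovered for count tests; 100% of values came out whole. edgeR on these reads called 185 of all tested genes.

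Groups came from the sample titles. Genes with a mean of 10 or more were tested with limma 3.58.1 (R 4.3.3) on log2(value + 1) with an intensity trend and genotype as the only term; adjusted p values are Benjamini-Hochberg over the 12937 genes. limma was tested on simulated counts. Msr1 was tested by exact permutation; the absolute-difference p was computed first and the doubled-tail p adopted afterwards, and both are printed. Alternatives were a pseudocount of 0.5 or 5, testing without a filter or from a mean of 50, TMM and quantile scaling, edgeR 4.0.16, DESeq2 1.42.0, limma array weights, a block for animal number, member means of 25 and 100, and each liver left out; edgeR and DESeq2 without wild type 3 were added after seeing the data. Positions are from GENCODE M21 (201 genes matched by symbol, 39 through a RefSeq symbol) and RefSeq on GRCm38.

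The members and lists were chosen with earlier results of these data known. Named genes are the called members, the 6 highest and 6 lowest differences, the 6 most abundant, the 5 most variable in wild type, the 5 steadiest, and the 3 on either side of the mean of 50; genes named by role or from the fit without wild type 3 were added after their values were seen. No 2 libraries were duplicates, chi-square per degree of freedom being at least 19.73 between any pair. Depths cover counting error only.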

Additional observations from a re-analysis of the deposited data

Results flagged for a closer look

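Of 44 groups looked at, 6 had 1 liver far from the rest by Dixon's criterion. Its chance rate of about 1 in 20 does not apply, since the genes were partly chosen for a wide spread in wild type or a large difference; 2010003K11Rik and 1110008F13Rik were both chosen for their spread in wild type, so their flags there are a description. Hectd2os (1500017E21Rik) was at 24.3 in wild type 2, against 73.0 to 77.0 in the other wild-type livers, and at 267.1 in Msr1-/- 1, against 108.6 to 136.1 in the other Msr1-/- livers. 1810058I24Rik was at 1233 in wild type 3, against 2082 to 2223. 2010003K11Rik was at 3204 in wild type 3, against 119.2 to 475.3. Rab5if (1110008F13Rik) was at 230.6 in wild type 3, against 48.5 to 79.1, and at 148.4 in Msr1-/- 1, against 70.3 to 92.2.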

How the results depend on the processing

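The 3 calls among RIKEN-named genes were all kept with pseudocounts of 0.5 and 5, no filter, TMM scaling and edgeR. Where tested genes needed a mean of 50, 2 were called, against 127 of 10099 genes. The count was 1 with quantile scaling (0 higher, 1 lower), against 161 of all genes. It was 9 with array weights (6 higher, 3 lower), against 4.10% of all genes. DESeq2 gave 14 (8 higher, 6 lower), or 5.83% against 6.00% of all genes. Among members with a mean of 100 or more the count was 1, with 1.37% of all genes called. With wild type 3 left out it was 10 by edgeR (5.12% of all genes) and 17 by DESeq2 (8.26% of all genes). Leaving out 1 liver at a time gave 0 to 11: 0 without wild type 1 or 4 or without Msr1-/- 1, 2, 3 or 4 (36 to 192 of all genes called), 1 without Msr1-/- 5 (65 of all genes), 2 without wild type 2 (64) and 11 without wild type 3 (629), against 177 of all genes with all livers. The cause was not tested.

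With the animal number as a replicate block, 0 RIKEN-named genes and 8 genes in all were called by limma; Msr1-/- 5 has no partner in that fit. Same-numbered animals share only a number: their deviations correlated at 0.025, -0.077, -0.10 and 0.22. The Msr1 difference ranged from -0.72 to -0.31 on leaving out 1 liver at a time, past the threshold only without Msr1-/- 3 by the doubled-tail exact permutation test.

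Of all 241 members 51 changed sign without wild type 3, 0 of them called in either limma fit. Over the other alternatives signs were followed only for the named genes, of which 5 reversed under 1 or more settings, none of them called. 0610005C13Rik gave -0.013 with quantile scaling, -0.059 with edgeR and with DESeq2, -0.21 with array weights, -0.010 with the replicate block, and -0.32 by edgeR and -0.31 by DESeq2 without wild type 3, its leave-one-out range being -0.32 to 0.24. C130074G19Rik gave -0.016 with quantile scaling, -0.034 with array weights, and -0.053 by edgeR and -0.047 by DESeq2 without wild type 3, with a leave-one-out range of -0.044 to 0.15. 2010003K11Rik gave -0.74 with edgeR (leave-one-out -0.16 to 1.42), and 1110008F13Rik -0.13 with edgeR and -0.11 with DESeq2 (leave-one-out -0.13 to 0.62). 1700018L02Rik ranged from -0.90 to 0.48 on leaving out 1 liver.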
